A study of Homo sapiens with 2 samples.

Results

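The sites described here were the p52 ChIP-seq summits that lay in intergenic sequence. A summit is the position of highest signal in a called peak. It was taken as intergenic where it lay on chromosomes 1 to 22, X or Y of hg38, over 1000 bp from every transcript start and outside the body of every gene in GENCODE release 44. There were 334 such summits among 2007 in replicate 1 (16.6% of the list) and 269 among 1467 in replicate 2 (18.3%). The cells were MDA-MB-231, an established human triple-negative breast cancer (TNBC) line. They were starved in Opti-MEM for 8 h and then given TWEAK at 10 ng/ml for 48 h, with fresh cytokine after 24 h, and the antibody was given only by its target, NFKB2. The labels held 1 group of 2 replicates, and the study's methods describe ChIP-seq in cell lines as done in biological replicates. Untreated cells, IgG and input were not analysed here, and no value below compares treated with untreated cells. Each summit carried the −log10 of its q-value, called its strength below, while read depth was unknown. Lists of summits do not allow the cell line to be checked against marker genes.

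TWEAK is a cytokine of the TNF family that binds the receptor Fn14. In the non-canonical NF-κB pathway, receptor signals stabilise the kinase NIK, which drives the processing of the NFKB2 precursor p100 into p52. p52 commonly pairs with RELB and binds κB sites, which begin with a run of G and end with a run of C. AP-1, formed by JUN, FOS and related factors, binds a short palindromic element and is a frequent neighbour of NF-κB at enhancers. Much intergenic sequence consists of old mobile elements, among them LINE-1 elements and the long terminal repeats (LTRs) of endogenous retroviruses.

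A κB match was defined as GGG, a purine, any 2 bases, 2 pyrimidines and CC, read on both strands, and overlapping matches at successive positions were joined into a κB site of 10, 11 or 12 bp. The AP-1 element was TGACTCA or TGAGTCA. The first 6 sequences below are shown as examples of strong reproduced summits outside the repeated families described later, or of reproduced summits near listed genes. They were picked after their values were seen and all hold a κB site, which not every reproduced summit did. Each is the plus strand of hg38, 50 bp to either side of the replicate 1 summit, with κB sites and AP-1 elements in capitals.
EGR1 side, chr5:138461443-138461543: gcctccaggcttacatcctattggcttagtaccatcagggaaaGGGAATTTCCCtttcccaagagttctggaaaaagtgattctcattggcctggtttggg
RAB35 side, chr12:120119645-120119745: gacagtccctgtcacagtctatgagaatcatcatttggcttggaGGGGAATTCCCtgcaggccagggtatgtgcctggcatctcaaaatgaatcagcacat
MAFF and PLA2G6, chr22:38218720-38218820: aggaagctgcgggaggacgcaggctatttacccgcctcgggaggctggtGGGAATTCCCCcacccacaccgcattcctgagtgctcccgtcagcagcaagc
CCL28 side, chr5:43422368-43422468: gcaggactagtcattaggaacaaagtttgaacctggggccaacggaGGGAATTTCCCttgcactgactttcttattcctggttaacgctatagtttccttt
LIF side, chr22:30250906-30251006: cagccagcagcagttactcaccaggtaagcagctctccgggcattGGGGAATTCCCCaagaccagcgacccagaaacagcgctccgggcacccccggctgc
IRF2 side, chr4:184383594-184383694: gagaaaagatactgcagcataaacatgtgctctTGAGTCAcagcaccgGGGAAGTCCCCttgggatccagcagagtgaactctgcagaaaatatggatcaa
The next 2 segments of 30 bases are shown because their surroundings recur many times in the genome. Both belong to the family called B below, and each is written on the strand that aligns it with the other.
Family B, chr7:50815350-50815379, GRB10 side: ttttataaaGGGGAATTCCCCtgcacaagc
Family B, chr12:94706500-94706529, minus strand, TMCC3 side: ttttataaaGGGGAATTCCCCtgcacaagc

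Intergenic summits made up 20.2% ± 2.44 (SD, n = 2) of the summits on chromosomes 1 to 22, X and Y. Intergenic sequence by the same rule made up 36.5% of the length of these chromosomes. The strength of intergenic summits had a median of 12.4 in replicate 1, between 1.64 and 235.1. In replicate 2 the median was 10.4, between 1.17 and 133.3. Summits in distal introns, which lie within gene bodies over 1000 bp from a start and outside exons, had medians of 11.7 and 9.36. Promoter summits, within 1000 bp of a transcript start of any gene type in GENCODE and not only of coding genes, had medians of 10.3 and 10.1. The plot of strength by place shows the 4 classes overlapping over most of their range. The share of intergenic summits in the strongest 25% of the list was 26.0% in replicate 1 and 22.3% in replicate 2. It did not differ beyond counting error from that of intronic summits (26.1% and 18.9%, two-sided Fisher's exact tests, adjusted p = 1 and 0.404) or promoter summits (28.7% and 28.1%, adjusted p = 0.454 and 0.149). Here and below the adjustment is that of Benjamini and Hochberg over 24 such tests, and summits rather than cultures are the units counted.

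**Figure D1:**
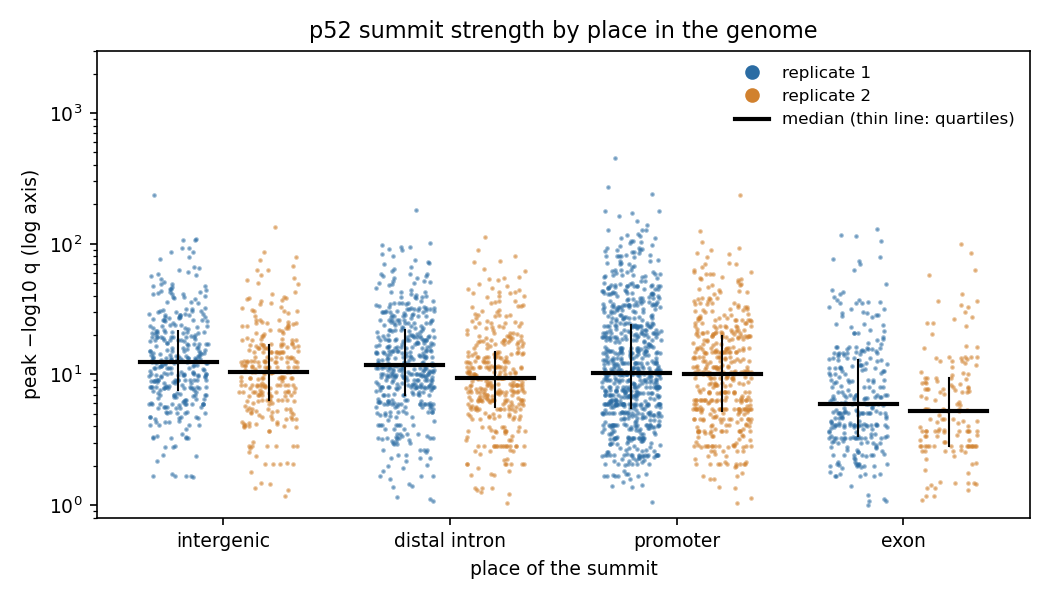
Strength of every summit on chromosomes 1 to 22, X and Y (vertical log axis, peak −log10 q) by place in the genome and replicate; thick bars are medians and thin lines join the quartiles. Intergenic summits had medians of 12.4 and 10.4, with exon summits lower at 5.98 and 5.23.

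The edge of the intergenic class was set by the distance of 1000 bp to a start. Outside gene bodies, the 3 summits just over it in replicate 1 lay 1036, 1066 and 1096 bp from a start, with strengths of 7.98, 5.98 and 9.02. All 3 lay in the array of 5S ribosomal RNA genes on chromosome 1 and had no κB match. The 3 just under it lay 996, 936 and 800 bp from a start of any gene type, with strengths of 20.7, 5.03 and 11.2. Their nearest coding genes were TRPV3, PHLDA2 and CNKSR3, whose own starts can lie farther away. In replicate 2 the summits just over it lay 1008, 1012 and 1028 bp from a start with strengths of 5.45, 6.38 and 13.7, and those just under at 983, 974 and 930 bp with strengths of 11.5, 2.07 and 6.10.

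The 2 lists shared 191 intergenic summits, each pair one-to-one and intergenic in both lists. This was 57.2% of the intergenic summits of replicate 1 (95% Wilson interval 51.8 to 62.4) and 71.0% of those of replicate 2 (65.3 to 76.1). In all, 412 intergenic places were called in either list. The median distance within a pair was 10 bp, and 14 pairs fell on the same base. The stronger value was that of replicate 1 in 146 of the 191 pairs. Over the 191 pairs the strengths of the 2 replicates had a Spearman's rho of 0.784 as a description, and the points share the sequence and mappability of each place. The strongest unmatched summit reached 31.4 in replicate 1, at chr6:96324, and 34.9 in replicate 2, at chr10:128464538. No 31-base word of the first window was unique in the reference, and in the second window, which had no κB match, 39.2% were.

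**Figure D2:**
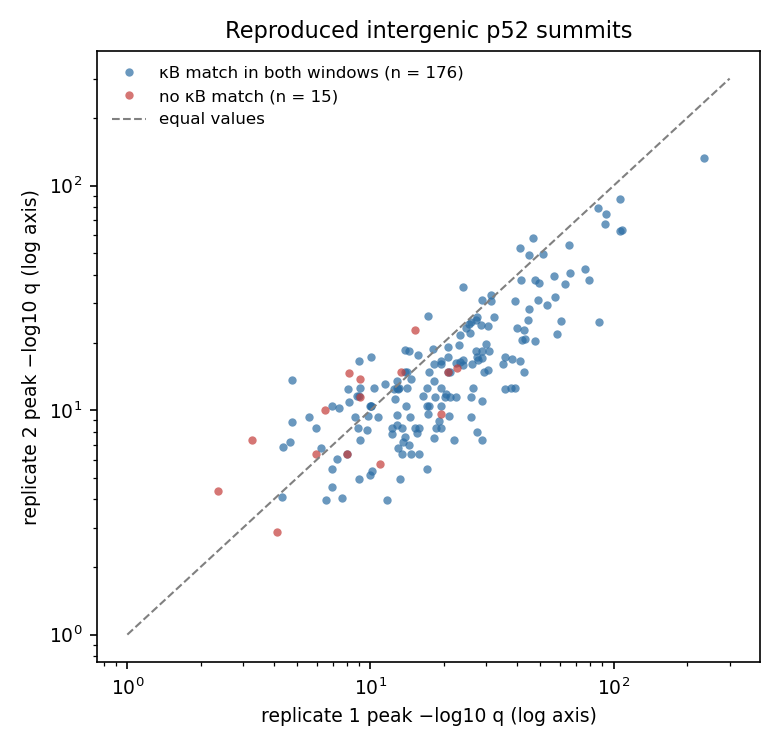
Strength in replicate 1 (horizontal log axis, peak −log10 q) and replicate 2 (vertical log axis) of the 191 reproduced intergenic summits; blue points have a κB match in both windows (176), red points have none (15), and the dashed line marks equal values. Most points lie below the line, 146 of the 191.

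The reproduced share did not differ beyond counting error from that of intronic summits, 56.5% and 67.1% (odds ratios 1.03, 0.773 to 1.37, and 1.20, 0.852 to 1.68, two-sided Fisher's exact tests, adjusted p = 0.922 and 0.402). Against promoter summits the result depended on the list and on the distance allowed within a pair. In replicate 1, 57.2% of intergenic and 44.4% of promoter summits were reproduced (odds ratio 1.67, 95% interval 1.29 to 2.17, two-sided Fisher's exact test, adjusted p = 0.000430). In replicate 2 the shares were 71.0% and 74.6% (odds ratio 0.833, 0.593 to 1.17, two-sided Fisher's exact test, adjusted p = 0.402). With pairs within 100 bp the odds ratio of replicate 2 was 1.13 (two-sided Fisher's exact test, adjusted p = 0.575), and within 500 bp it was 0.616 (two-sided Fisher's exact test, adjusted p = 0.0223). The call in replicate 1 was lost within the stronger 50% of the list (two-sided Fisher's exact test, adjusted p = 0.548) and without the repeated families A to D (adjusted p = 0.0615).

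Most intergenic summits sat on a κB site. A κB match within 100 bp was found in 283 of 334 windows of 201 bp in replicate 1 (84.7%, 80.5 to 88.2) and 219 of 269 in replicate 2 (81.4%, 76.3 to 85.6), a mean of 83.1% ± 2.35 (SD, n = 2). The match is common to 2.3% of all 5596821 windows of the same length that tile intergenic sequence. Intergenic windows with summits were richer in G and C than average, and windows of like composition held the match in 5.41% and 5.62%. The same letters read backwards, a control of equal composition, were found in 10.8% and 9.29% of summit windows, against 2.38% of all windows and 5.42% and 5.70% of those of like composition. The κB share did not differ beyond counting error from that of intronic summits (80.3% and 78.7%, odds ratios 1.36, 0.931 to 1.98, and 1.18, 0.797 to 1.75, two-sided Fisher's exact tests, adjusted p = 0.194 and 0.486). It was far above that of promoter summits (35.6% and 37.3%, odds ratios 9.97, 7.14 to 13.9, and 7.30, 5.08 to 10.5, two-sided Fisher's exact tests, adjusted p = 2.81e-52 and 1.96e-30). Without families A to D these odds ratios were 5.56 and 4.64, and in the stronger 50% of each list 23.1 and 15.2, all past the threshold. The promoter class took in starts of every gene type. With coding and lncRNA genes alone the intergenic κB share was 60.0%, and the comparison with promoters was not repeated in that setting.

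κB sites were concentrated at the summit itself. The nearest site had its centre within 10 bp of the summit in 184 of the 283 windows of replicate 1 and 145 of the 219 of replicate 2, with median distances of 6.5 and 6 bp. Per summit and 1000 bp of sequence, 9.10 and 8.83 sites lay within 50 bp, against 0.260 and 0.235 between 201 and 500 bp away. AP-1 elements gave a lower and broader profile, with 1.10 per 1000 bp within 50 bp in both lists against 0.160 and 0.180 farther out.

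**Figure D3:**
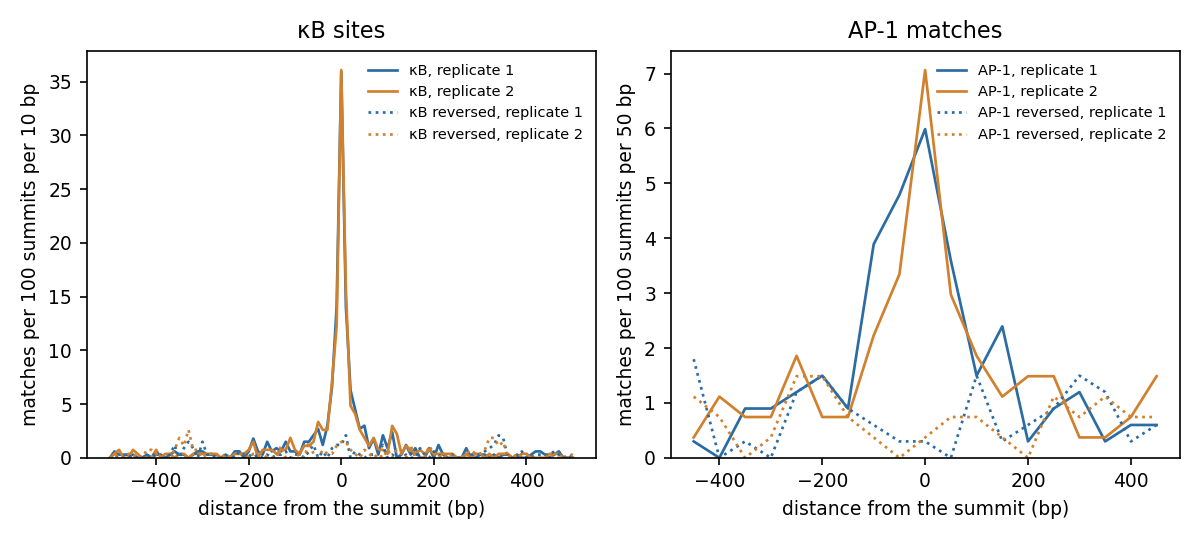
Number of κB sites (left, per 10 bp) and AP-1 elements (right, per 50 bp) per 100 intergenic summits by distance from the summit in bp; dotted lines are the same letters read backwards. The κB peak is centred on the summit in both replicates, with 184 and 145 nearest sites within 10 bp.

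Strength, κB sites and reproduction went together along the list. In the strongest 25% of all summits, 85 of 87 intergenic summits of replicate 1 (97.7%) and 58 of 60 of replicate 2 (96.7%) had a κB match. In the weakest 25% these were 25 of 46 (54.3%) and 25 of 51 (49.0%), which is still above the 2.3% of all intergenic windows. Reproduction fell from 94.3% to 17.4% in replicate 1 and from 98.3% to 21.6% in replicate 2 over the same range. Of the 191 reproduced summits, 176 had a κB match in both windows (92.1%), and in 169 pairs the nearest site was the same. Among unmatched summits the share was 74.8% in replicate 1 (odds ratio 3.87, 2.04 to 7.34, two-sided Fisher's exact test, adjusted p = 8.91e-05) and 55.1% in replicate 2 (odds ratio 9.29, 4.70 to 18.4, adjusted p = 1.47e-10). Reproduced summits were also stronger, with medians of 19.1 and 13.1 against 7.87 and 5.27, and the part of strength in this difference was not tested. Within the stronger 50% of the list the odds ratio of replicate 1 was 3.61 (two-sided Fisher's exact test, adjusted p = 0.0929) and that of replicate 2 was 7.11 (adjusted p = 0.0365), and in mostly single-copy windows that of replicate 1 was 6.22.

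**Figure D4:**
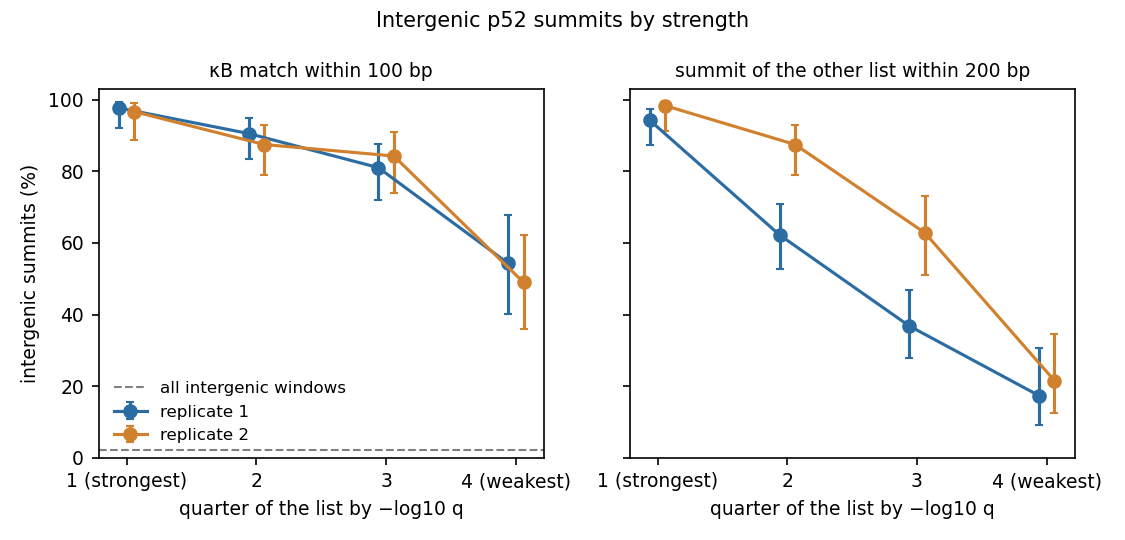
Share of intergenic summits (%) with a κB match (left) and with a summit of the other list (right) by 25% step of each list, 1 being the strongest; bars are 95% Wilson intervals and the dashed line is the share of all intergenic windows with a κB match (2.3%). Both shares are lowest in the weakest 25%, at 54.3% and 49.0% for κB.

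The kind of κB site under the summits was not that of the genome at large. Sites of 10 bp made up 89.5% of the κB sites in all intergenic windows, sites of 11 bp 9.83% and sites of 12 bp 0.662%. Under summits of replicate 1 the nearest site was of 10 bp in 26.5% of windows with a match, of 11 bp in 65.0% and of 12 bp in 8.48%. In replicate 2 these were 23.7%, 64.8% and 11.4%. An 11 bp site contains 2 overlapping matches. Median strength was 11.6 with a 10 bp site, 14.5 with an 11 bp site and 16.9 with a 12 bp site in replicate 1, and 10.4, 12.6 and 10.4 in replicate 2. Without a site it was 5.98 and 5.27.

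Counted the other way, from every κB site in intergenic sequence, the same difference was seen. Of 125345 sites of 10 bp, 0.108% had an intergenic summit of replicate 1 within 100 bp (0.0910 to 0.127) and 0.0782% one of replicate 2. Of 13872 sites of 11 bp these were 1.38% (1.20 to 1.59) and 1.08%, and of 931 sites of 12 bp 2.58% (1.74 to 3.81) and 2.69%. Most κB sites of any length had no summit.

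Single letters at the ends of a site went with large differences. The palindrome GGGAATTCCC, with no further G or C that extends the match, occurred 1359 times in intergenic sequence and had a summit in 0.368% of cases in replicate 1 and 0.294% in replicate 2. GGGAATTCCCC, which is longer by 1 C and reads GGGGAATTCCC on the other strand, occurred 458 times and had a summit in 13.1% and 9.17%. GGGGAATTCCCC, extended at both ends, occurred 82 times, with a summit in 17.1% (10.4 to 26.6) and 20.7% (13.4 to 30.7). For the core AAAT the 10 bp form GGGAAATCCC had a summit at 0.373% and 0.299% of its 1340 occurrences, and GGGAAATCCCC at 9.23% and 8.35% of 802. Not every long site was of this kind, since GGGAAACTCCC had a summit at 0.331% and 0.265% of 1512 occurrences. Outside families A and B, described below, the shares were 4.36% and 4.90% of 367 for GGGAAATCCCC and 1.14% and 0.909% of 440 for GGGAAACTCCC, and 13.5% and 9.77% of 266 for GGGAATTCCCC. Of the 136 site words that occurred 50 times or more, 87 had no summit in either list. GGGAAATCCCC was the nearest site of 71 summits in replicate 1 and 65 in replicate 2, and GGGAATTCCCC of 58 and 42. These words were picked after their counts were seen and were not tested.

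**Figure D5:**
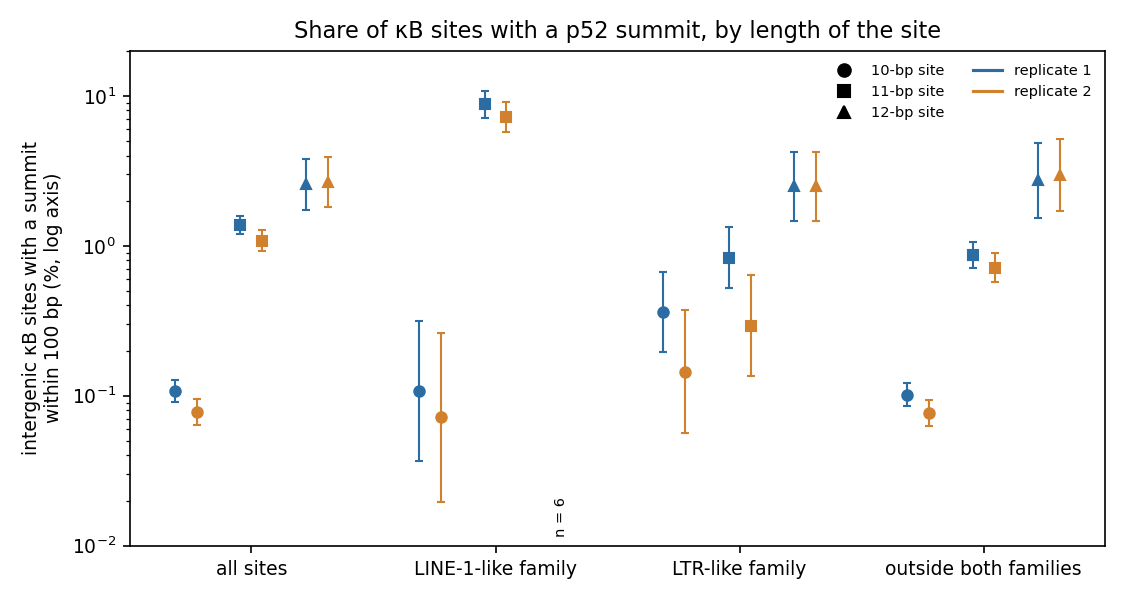
Share of intergenic κB sites (%, vertical log axis) with an intergenic summit within 100 bp, by length of the site (marker shape), replicate (colour) and sequence family; bars are 95% Wilson intervals, and the 6 sites of 12 bp in the LINE-1-like family are not drawn. Over all sites the share goes from 0.108% and 0.0782% at 10 bp to 2.58% and 2.69% at 12 bp.

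About as many intergenic summits lay in sequence that resembles that of other summits as did not. Windows were compared with each other by alignment. In replicate 1, 170 of 334 windows (50.9%) were linked to the window of a summit elsewhere, and in replicate 2, 136 of 269 (50.6%). A link ran directly or through other windows, including that of the partner in the other list. For distal introns the linked shares were 38.8% and 39.9%, and for promoters 20.2% and 29.75%. These differences were not tested. The 2 largest groups of windows that aligned to a common member, families A and B, held 81 and 41 intergenic summits in replicate 1 and 68 and 27 in replicate 2. Smaller families C and D held 9 and 8 in replicate 1 and 6 and 5 in replicate 2. These families were formed from the sequences of the summits and were described only, with no test. No repeat annotation was used here, and no window was aligned to the sequence of a known repeat. The names below were given from the extent of the alignments and general knowledge, and were not tested.

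Family A had the layout of LINE-1, the mobile element that still copies itself in the human genome. A window counted as aligned at a position where it aligned to over 20% of the other windows it matched. Sides are named on the strand that reads the commonest site, GGGAAATCCCC, as GGGGATTTCCC. The alignment among 81 intergenic windows of replicate 1 ended between 200 and 300 bp on the 5′ side of the κB site. At these distances 66.7% and 0% of the windows were still aligned. On the 3′ side 92.6% were aligned at 1000 bp, 70.4% at 5000 bp and 0% at 6500 bp. The κB site thus lay close to an end of the shared sequence, which was several kb long. That this is the 5′ end of an element rests on the name given and was not tested. All 81 and all 68 intergenic members had a κB match, of 11 bp in 76 and 65 of them, most often GGGAAATCCCC (51 and 45). Members had median strengths of 14.4 and 12.6, against 12.4 and 10.4 for all intergenic summits, and 57 pairs were reproduced. They took 16 and 14 of the 50 strongest intergenic summits of the lists, where their share of all intergenic summits was 24.25% and 25.28%. This difference was not tested. A further 96 and 82 summits of the family lay in distal introns.

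Within family A nearly all summits lay at copies with an 11 bp site, although most such copies had no summit. Intergenic copies held 2789 sites of 10 bp, of which 3 had a summit in replicate 1 and 2 in replicate 2 (0.108% and 0.0717%). Of 909 sites of 11 bp, 80 (8.80%, 7.13 to 10.8) and 66 (7.26%, 5.75 to 9.13) had one. Copies with an 11 bp site were also closer in sequence to the member used for the search, with a median identity of 80.5% against 77.5% for copies with a 10 bp site and 77.0% for those with none. The part of identity was not tested, and reads are placed less surely in repeated sequence. Of the 81 members of replicate 1, 53 had windows whose 31-base words were mostly unique in the reference (65.4%). Over all intergenic summits of replicate 1 this share was 78.4%.

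Family B was taken to be an LTR of the MaLR group (MST and THE1 elements), remnants of old retrovirus-like transposons, a name that was not tested. Most aligned sequence lay close to the site. By the same rule as in family A, 97.7% and 93.0% of 43 windows were aligned at 100 bp to either side and 0% at 300 bp. These 43 windows of replicate 1 were taken before the family was narrowed to the 41 that aligned to a common member. Up to 9.30% aligned again farther out, over 1 kb away on either side. Intergenic copies numbered 15660, of which 41 had a summit in replicate 1 (0.262%) and 27 in replicate 2 (0.172%). Of the 10335 copies with no κB match within 30 bp of the aligned position, 1 had a summit in replicate 1 and 0 in replicate 2. Counted within 100 bp of the summit itself, 40 of 41 members in replicate 1 and 23 of 27 in replicate 2 had a match. Of 522 intergenic sites of 12 bp in the family, 13 had a summit in each list (2.49%, 1.46 to 4.21). A further 36 and 32 summits of the family lay in distal introns. With a κB match within 30 bp, 0.751% and 0.507% of intergenic copies and 0.685% and 0.626% of intronic copies had a summit. The 2 printed segments of family B, on chromosomes 7 and 12, carried strengths of 39.4 and 35.2 in replicate 1 and 30.6 and 16.1 in replicate 2.

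Family D and family C joined κB sites to AP-1 elements. An AP-1 element lay in 7 of 8 and 5 of 5 windows of family D, and in 8 of 9 and 6 of 6 windows of family C. In the 3 family D members named among the strongest with both motifs, at chr9:90755938, chr9:90226990 and chr3:125698193, the centres of the 2 elements lay 13, 13 and 12 bp apart. Only 2 of 8 and 2 of 5 windows of family D were mostly unique in the reference, against 78.4% and 78.8% of all intergenic summits. The place of reads in family D was thus less certain.

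AP-1 elements were less common than κB sites but above the genome at large. They were found within 100 bp of 52 intergenic summits in replicate 1 (15.6%, 12.1 to 19.8) and 40 in replicate 2 (14.9%, 11.1 to 19.6), against 2.94% of all intergenic windows and 1.80% and 1.86% for the element read backwards. The share was above that of promoter summits (4.36% and 3.66%, odds ratios 4.02, 2.54 to 6.36, and 4.51, 2.49 to 8.17, two-sided Fisher's exact tests, adjusted p = 1.29e-08 and 9.19e-07). Against intronic summits (11.1% and 9.70%) the odds ratios were 1.47 (0.971 to 2.24) and 1.62 (1.01 to 2.62), with adjusted p = 0.149 and 0.105 (two-sided Fisher's exact tests). AP-1 elements lay at 16.2% of reproduced and 14.7% of unmatched summits in replicate 1 and at 17.3% and 8.97% in replicate 2, differences that did not pass the threshold (odds ratios 1.12, 0.616 to 2.03, and 2.02, 0.870 to 4.67, two-sided Fisher's exact tests, adjusted p = 0.831 and 0.149). Of the other elements searched, TGCTGAC, the core of sites for MAF factors, was found in 4.79% and 2.97% of windows against 1.963% of all and 2.68% and 2.66% at like composition. CTCF sites lay in 3 windows of replicate 1 (0.898%) and 0 of replicate 2, which allows up to 1.41% (Wilson), against 0.0632% of all and 0.164% and 0.180% at like composition. CCGGAA followed by a purine and a pyrimidine, for ETS factors, lay in 2 and 1 windows. The letters ACATTCC or GCATTCC, for TEAD factors (5.99% and 7.06% against 6.27%) and TGTGGTT, for RUNX factors (2.69% and 2.60% against 3.81%) stayed near the level of all windows.

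Both a κB site and an AP-1 element were present at 46 intergenic summits of replicate 1 and 39 of replicate 2, and at 31 reproduced pairs. Their median strength was 14.8 and 13.5, against 13.5 and 11.5 with a κB site alone. With an AP-1 element alone there were 6 and 1 summits, with medians of 7.26 and 4.54, and 0 of these were reproduced. The strongest pair with both lay at chr5:138461493, with 70 bp between the centres of the elements. The next outside the families lay at chr1:221440125, between HLX and DUSP10, with strengths of 44.3 and 25.3 and elements 14 bp apart. DUSP10, a phosphatase that acts on stress kinases, had its nearest start 271691 bp away. At chr1:19336698, beside CAPZB, strengths were 40.0 and 23.3 and the elements lay 51 bp apart. At chr15:69979484, 72021 bp from TLE3, a corepressor, strengths were 25.8 and 22.1 and the distance was 55 bp.

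Summits without a κB match had a lower median strength, but some were strong and some were reproduced. They numbered 51 in replicate 1 and 50 in replicate 2, and 15 pairs were reproduced without a match in either window. The strongest without a match were unmatched between the lists, at 34.9 in replicate 2 (chr10:128464538, rank 22) and 30.2 in replicate 1 (chr12:10677073, 2755 bp from STYK1, rank 50). The strongest such pair lay at chr4:176377969, between SPCS3 and VEGFC, with strengths of 22.7 and 15.4. The next lay at chr1:31712823, 8504 bp from COL16A1, a collagen gene, with 20.8 and 14.8. Another at chr4:72858508, between ADAMTS3 and COX18, had 15.2 and 22.6. Windows whose 31-base words were mostly not unique numbered 15 of the 51 and 26 of the 50. Over all intergenic summits they numbered 72 of 334 and 57 of 269. Of these pairs 3 lay in the 5S ribosomal RNA array between RNF187 and RHOU, beside RNA5S10, RNA5S13 and RNA5S15 or RNA5S14. There 4 intergenic summits of replicate 1 spanned 13359 bp with strengths of 5.98 to 9.02, and 3 of replicate 2 spanned 8931 bp with 6.38 to 13.7. None of these windows held a 31-base word unique in the reference. The other dense group, 3 summits of replicate 2 at chr16:33336382-33339434 with strengths of 4.23 to 5.24, had no κB match and no partner in replicate 1.

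Intergenic summits lay nearer to genes than intergenic sequence does. The median distance to the nearest protein-coding start was 48423 bp in replicate 1 and 49395 bp in replicate 2, against 130511 bp for all intergenic windows. Starts within 5 kb were found for 8.08% and 8.55% of summits against 3.96% of windows. Distances over 500 kb were found for 7.49% and 5.95% of summits against 22.8% of windows. Per 100 Mb of intergenic sequence there were 29.6 and 23.8 summits, with 46.5 and 42.7 on chromosome 1, 57.6 and 36.0 on chromosome 22, and 10.6 and 6.38 on chromosome 13. Another p52 summit of the same list lay within 50 kb of 18.0% and 11.9% of intergenic summits. For intronic summits this was 9.30% and 7.28% (odds ratios 2.13, 1.39 to 3.25, and 1.71, 1.01 to 2.92, two-sided Fisher's exact tests, adjusted p = 0.00156 and 0.105). With starts kept 5 kb away the odds ratios were 3.45 and 1.79 (two-sided Fisher's exact tests, adjusted p = 6.82e-05 and 0.174). For promoter summits the share was 24.5% and 19.5% (odds ratios 0.677, 0.489 to 0.937, and 0.564, 0.365 to 0.873, two-sided Fisher's exact tests, adjusted p = 0.0425 and 0.0243). The difference from promoters was lost in both lists without families A to D (two-sided Fisher's exact tests, adjusted p = 0.768 and 0.393) and in the stronger 50% of each list.

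The strongest intergenic site of both lists lay at chr5:138461493, with strengths of 235.1 and 133.3, and held rank 8 of all summits in replicate 1 and rank 13 in replicate 2. The summit was on the same base in both lists and on an 11 bp κB site, 3986 bp from the start of EGR1, an immediate early transcription factor, and 16495 bp from REEP2. The second place by mean rank was chr4:74505543, a member of family A, with strengths of 106.3 and 87.2. It lay beyond the 3′ end of AREG, 56904 bp from the nearest start of that gene. AREG encodes amphiregulin, a ligand of the EGF receptor. A second site farther out on the same side, chr4:74546202, had strengths of 19.1 and 8.95 and a 12 bp κB site. At chr5:106399553, with 108.6 and 63.4, the nearest coding start was that of EFNA5, an ephrin ligand, 989000 bp away. The site 2193 bp from RAB35, a regulator of endocytic recycling, had 92.9 and 74.8.

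Of the 12 strongest pairs 4 belonged to family A, near AREG, ABCC9, GNAQ and SRD5A3, with strengths of 65.6 to 106.3 in replicate 1 and 54.5 to 87.2 in replicate 2. The pair at chr22:38218770 had 86.1 and 79.7. It lay between PLA2G6, whose start was 3992 bp away, and TMEM184B at 4162 bp, and beyond the 3′ end of MAFF, a small MAF factor with a start 5235 bp away. The pair at chr11:1152483, between the mucin genes MUC2 and MUC5AC, had 76.0 and 42.5 and 2 κB sites, the nearer one of 10 bp. The pair at chr18:38940926, a member of family C 1375099 bp from CELF4, its nearest coding start, had 66.2 and 41.0, with 3 κB sites and 2 AP-1 elements in the window. Sites 59048 bp from STMND1 (78.9 and 38.1) and 31784 bp from EFL1 (51.2 and 49.8) completed the list.

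Genes of the NF-κB response and related lists had intergenic summits in their neighbourhood. Of 153 listed protein-coding genes, 20 had an intergenic summit of replicate 1 within 100 kb of a start (13.1%), 18 one of replicate 2 (11.8%) and 15 both (9.80%). Over all 20007 protein-coding genes this was 3.33%, 2.57% and 1.89%. Listed genes that lie next to each other shared summits, so these counts are not independent. The lists were also chosen with earlier results of these data known, so the shares are a description and no test of enrichment. By list, chemokines and cytokines had 6 and 8 of 25 genes, AP-1 and MAF factors 4 and 3 of 16, and NF-κB subunits and inhibitors 2 and 0 of 11. NF-κB signalling and feedback genes had 2 and 2 of 16, survival and inflammatory effectors 2 and 3 of 25, and EGFR ligands, TGF-beta, matrix and integrin genes 2 and 2 of 31. NAD metabolism genes had 2 and 0 of 11, and 0 of 18 TNF ligands and receptors had one in either list.

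Among cytokines and chemokines, LIF, a cytokine of the interleukin-6 family, had the nearest reproduced site, at chr22:30250956. Its start was 4197 bp away, strengths were 43.4 and 20.8, and the κB site was GGGGAATTCCCC. CCL28, an epithelial chemokine, had a site 10027 bp from its start on the same base in both lists, with 63.3 and 36.5. CSF1, the macrophage growth factor, had one 17525 bp away with 20.2 and 11.5. The site between CXCL3 and CXCL2, neutrophil chemokines, lay 32333 and 28055 bp from their starts, with strengths of 8.13 and 14.7. It had no κB match and also counted for CXCL5, 72463 bp away. IL1B and IL1A shared a weak summit of replicate 2 with a strength of 2.85.

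Other listed genes had a reproduced intergenic summit nearest to their own start. Distances to a gene run to its nearest annotated transcript start, which can lie inside the gene. IRF2, an interferon regulatory factor, had a summit beyond its 3′ end, 9328 bp from such a start. Its strengths were 14.5 and 7.02 and it had both motifs. PTGS2, which encodes cyclooxygenase-2, had one 28054 bp away with 12.3 and 7.83, also with both. TGFBR1, a TGF-beta receptor, had one beyond its 3′ end, 27497 bp from the nearest start, with 15.7 and 17.6 and both motifs. Among AP-1 and MAF factors, reproduced sites lay within 100 kb of BATF (38530 bp, 19.4 and 16.6), FOSL1 (12402 bp, 21.0 and 9.40) and MAFF, none of which was the nearest coding gene. TRAF2, an adaptor of TNF receptors, and TNFAIP8 had reproduced sites 96624 and 83347 bp away. The sites of BATF and TNFAIP8, like that of MAFF, lay beyond the 3′ end of the gene.

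NAMPT, the rate-limiting enzyme of NAD salvage, had 1 intergenic summit within 100 kb, in replicate 1 and not in replicate 2. It lay at chr7:106330068, 44102 bp from the nearest NAMPT start, with a strength of 7.35 and rank 253 of 334. The window held an 11 bp κB site and an AP-1 element and is shown for that reason, with 50 bp to either side of the summit on the plus strand of hg38.
NAMPT side, chr7:106330018-106330118: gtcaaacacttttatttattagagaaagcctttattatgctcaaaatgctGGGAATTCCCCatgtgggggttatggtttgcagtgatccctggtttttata
The AP-1 element lay beyond the printed stretch. Of the intergenic summits of replicate 1 between the weakest 25% and the stronger 50% of the list, where it lay, 36.8% had a partner. RELA and NFKBIA, a subunit and an inhibitor of NF-κB, likewise had an intergenic summit in replicate 1 alone, with strengths of 6.72 and 6.38 at 6909 and 70215 bp. Both lay beyond the 3′ end of the gene.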

How the data were processed

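ChIP-seq for p52 was carried out in TWEAK-treated MDA-MB-231 cells. According to the study's methods and processing notes, the authors trimmed reads with Trimmomatic, aligned them with Bowtie2 to the hg38 build, used MACS2 with input subtraction for peaks and removed blacklisted regions. Versions, the q-value threshold and treatment of duplicates were not given in the sources used here. The deposited lists hold 1 summit per peak and a value read as −log10 of its q-value from the MACS2 column layout. Peak names show that each replicate was called alone.

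Summits were classed with GENCODE release 44. Motifs were searched in windows of 201 bp, copies of 31-base words counted in the reference, and windows aligned with blastn 2.17.0 (E-value at most 1e-10). All intergenic windows served as background. Shares have Wilson 95% intervals, which cover counting error only, and classes were compared with two-sided Fisher's exact tests in scipy 1.17.1, adjusted over 24 tests. Odds ratios have 0.5 added to each count and Woolf intervals. Scripts were tested on simulated data. Read depth is unknown.

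Named sites were the 12 reproduced pairs with the best mean rank, up to 10 strongest pairs with both motifs, listed genes nearest to a reproduced summit within 100 kb, NAMPT, groups of 3 or more within gaps of 10 kb, and the 3 summits to either side of 1000 bp. Other named items were chosen after their values were seen. Members, gene lists and tests were chosen with earlier results of these data known. Segments of family A are not reported here.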

Additional observations from a re-analysis of the deposited data

Results flagged for a closer look

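Summits outside chromosomes 1 to 22, X and Y were not used in any comparison. There were 203 in replicate 1 and 242 in replicate 2, which is signal in data outside the comparisons and more than the 3 allowed by a count of 0. No control library was analysed here.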

How the results depend on the processing

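A total of 157 values were computed under alternatives, and 119 kept their direction, their side of the threshold or their size. Without replicate 1 or replicate 2 the intergenic share ran from 18.5% to 21.96%, the reproduced share from 57.2% to 71.0%, the κB share from 81.4% to 84.7% and the AP-1 share from 14.9% to 15.6%. The intergenic share was 16.1% with starts kept 5 kb away, 29.9% with coding and lncRNA genes alone and 23.5% in the stronger 50% of each list. The κB share was 60.0% with coding and lncRNA genes alone, 92.5% in the stronger 50%, 78.9% for motifs within 50 bp, 87.5% in mostly single-copy windows and 73.1% without families A to D, a setting chosen after seeing the data. The AP-1 share was 10.7% with coding and lncRNA genes alone, 18.4% in the stronger 50%, 9.99% within 50 bp and 13.4% without the families. The reproduced share was 84.3% in the stronger 50%, where 12 listed genes had a summit of replicate 1.

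Against introns, the κB odds ratios turned to 0.896 and 0.730 with coding and lncRNA genes alone and to 0.964 in the stronger 50% (replicate 1). The reproduced odds ratios turned to 0.936 over 5 kb from starts (replicate 1) and to 0.936 and 0.878 in the stronger 50%. The odds ratio for the strongest 25% turned to 1.09 in single-copy windows and 1.08 without the families (replicate 1). In replicate 2, AP-1 passed the threshold in the stronger 50% (2.43), and another summit within 50 kb passed it there (2.81) and with coding and lncRNA genes alone (2.69).

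Against promoters, the reproduced odds ratio was 1.13 within 100 bp and 0.616, past the threshold, within 500 bp in replicate 2. In replicate 1 it missed the threshold in the stronger 50% (1.23) and without the families (1.46). The odds ratio for the strongest 25% turned to 1.47 and 1.03 in single-copy windows. Another summit within 50 kb missed the threshold in the stronger 50% (0.942 and 0.830) and without the families (0.876 and 0.729).

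Between reproduced and unmatched summits, κB missed the threshold in the stronger 50% of replicate 1 (3.61), and AP-1 turned to 0.901 in single-copy windows (replicate 1) and 0.432 in the stronger 50% (replicate 2). The cause of these changes was not tested. No paired analysis was possible because there was 1 group.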
